A study of Mus musculus with 4 samples.

Results

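The spots with the most Osr2 and Pax9 mRNA were selected from Visium sections of the mouse embryonic head. Each spot with at least 5000 unique molecular identifiers (UMIs, each the count of 1 captured molecule) received a score, the mean over Osr2 and Pax9 of log2(1 + 10000 × UMIs of the gene / UMIs of the spot). The 250 spots with the highest scores, of 5495 such spots in 4 capture areas, were taken as the Osr2- and Pax9-high spots, here called high spots, and the remaining 5245 as the other spots. The values of Osr2 and Pax9 chose the spots, so every comparison of levels between high and other spots is given as a description without a test. Only the change between stages was tested between high and other spots.

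All embryos were wild type, of the C57BL/6J strain, and the tissue was the whole head, fixed in formalin, embedded in paraffin and cut coronally. Embryonic day 14.5 (E14.5) and E15.5 each had 2 capture areas: 1 area with the single section of replicate 1, and 1 area with the 3 sections of replicates 2, 3 and 4, which were counted together because the labels do not say which section is which replicate. The labels give no transgene or treatment and do not say whether the replicates are separate embryos, while the study describes its spatial experiments as done on biological replicates. A spot covers several cells, so its counts describe a small region, and fewer cells of a type cannot be told apart from less RNA per cell.

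Osr2 encodes a zinc finger transcription factor of the palatal shelf and tooth mesenchyme, and mice without it have a cleft palate and extra teeth. Pax9 encodes a paired box transcription factor that is needed in the same mesenchyme for the palate and teeth and is also active in the epithelium of the mouth, tongue and pharynx. The oral mesenchyme and the epithelium that covers it exchange Hedgehog, bone morphogenetic protein (BMP), fibroblast growth factor (FGF) and Wnt signals while the shelves grow, meet and fuse.

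In the GRCm38 assembly, Osr2 (ENSMUSG00000022330) lies on chromosome 15 at 35296098 to 35303305 on the plus strand, and Pax9 (ENSMUSG00000001497) on chromosome 12 at 56691767 to 56712822 on the plus strand. The high spots numbered 29 of 622 spots in the E14.5 replicate 1 area, 124 of 1949 in the E14.5 replicate 2-3-4 area, 31 of 984 in the E15.5 replicate 1 area and 66 of 1940 in the E15.5 replicate 2-3-4 area. Their depth was uneven, with a median of 10150 UMIs per high spot in the E14.5 replicate 1 area against 47938, 68960 and 63800 in the other 3 areas in the same order. Values of low genes in the shallow area rest on few molecules.

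Osr2 was summed over the high spots of each area and divided by all their UMIs. Its level was 758 counts per 1000000 UMIs (CPM) in E14.5 replicate 1, 551 in E14.5 replicate 2-3-4, 434 in E15.5 replicate 1 and 476 in E15.5 replicate 2-3-4. The other spots of the same areas held 92.6, 128, 110 and 160 CPM, which made the high spots 8.18-fold, 4.29-fold, 3.93-fold and 2.98-fold higher. Pax9 had 629, 680, 576 and 587 CPM in the high spots and 29.2, 66.8, 57.0 and 71.8 CPM in the other spots, folds of 21.5, 10.2, 10.1 and 8.17. The choice of spots used these values. The high spots held 4.54% of all UMIs, 15.6% of the Osr2 UMIs and 31.9% of the Pax9 UMIs.

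Osr2 had at least 1 UMI in all 250 high spots and Pax9 in 99.2% of them, with medians of 25.0 and 29.0 UMIs per spot. Among the other spots, 81.0% held an Osr2 UMI and 53.5% a Pax9 UMI. The background was read in the other spots of each area in the upper quartile of neuronal transcripts, where Osr2 ran at 21.1 to 69.4 CPM and Pax9 at 1.14 to 41.3 CPM, with an Osr2 UMI in 43.6% to 58.9% of them and a Pax9 UMI in 5.02% to 30.3%. The median depth of the neuron-rich spots was 26571 to 57943 UMIs. The highest of these levels, 69.4 and 41.3 CPM, were both in E15.5 replicate 2-3-4, against at most 23.8 and 10.8 CPM in the remaining areas. Whether the neuron-rich spots express either gene was not tested. Detection of either gene in a spot was therefore not read by itself as a sign of expression there.

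Because a threshold on noisy counts raises the chosen values, the UMIs of each spot were split at random, the spots chosen again on 1 part and measured on the rest. In the unused UMIs, Osr2 was 6.74-fold, 4.10-fold, 3.59-fold and 2.77-fold higher in the chosen spots of the 4 areas, and Pax9 16.2-fold, 9.56-fold, 9.32-fold and 7.35-fold. Of the spots chosen this way, 206 of 250 were among the high spots. The cut fell within a continuous range of scores. The last 3 spots inside it scored 2.2347, 2.2347 and 2.2346, and the first 3 outside it 2.2306, 2.2297 and 2.2281.

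**Figure D1:**
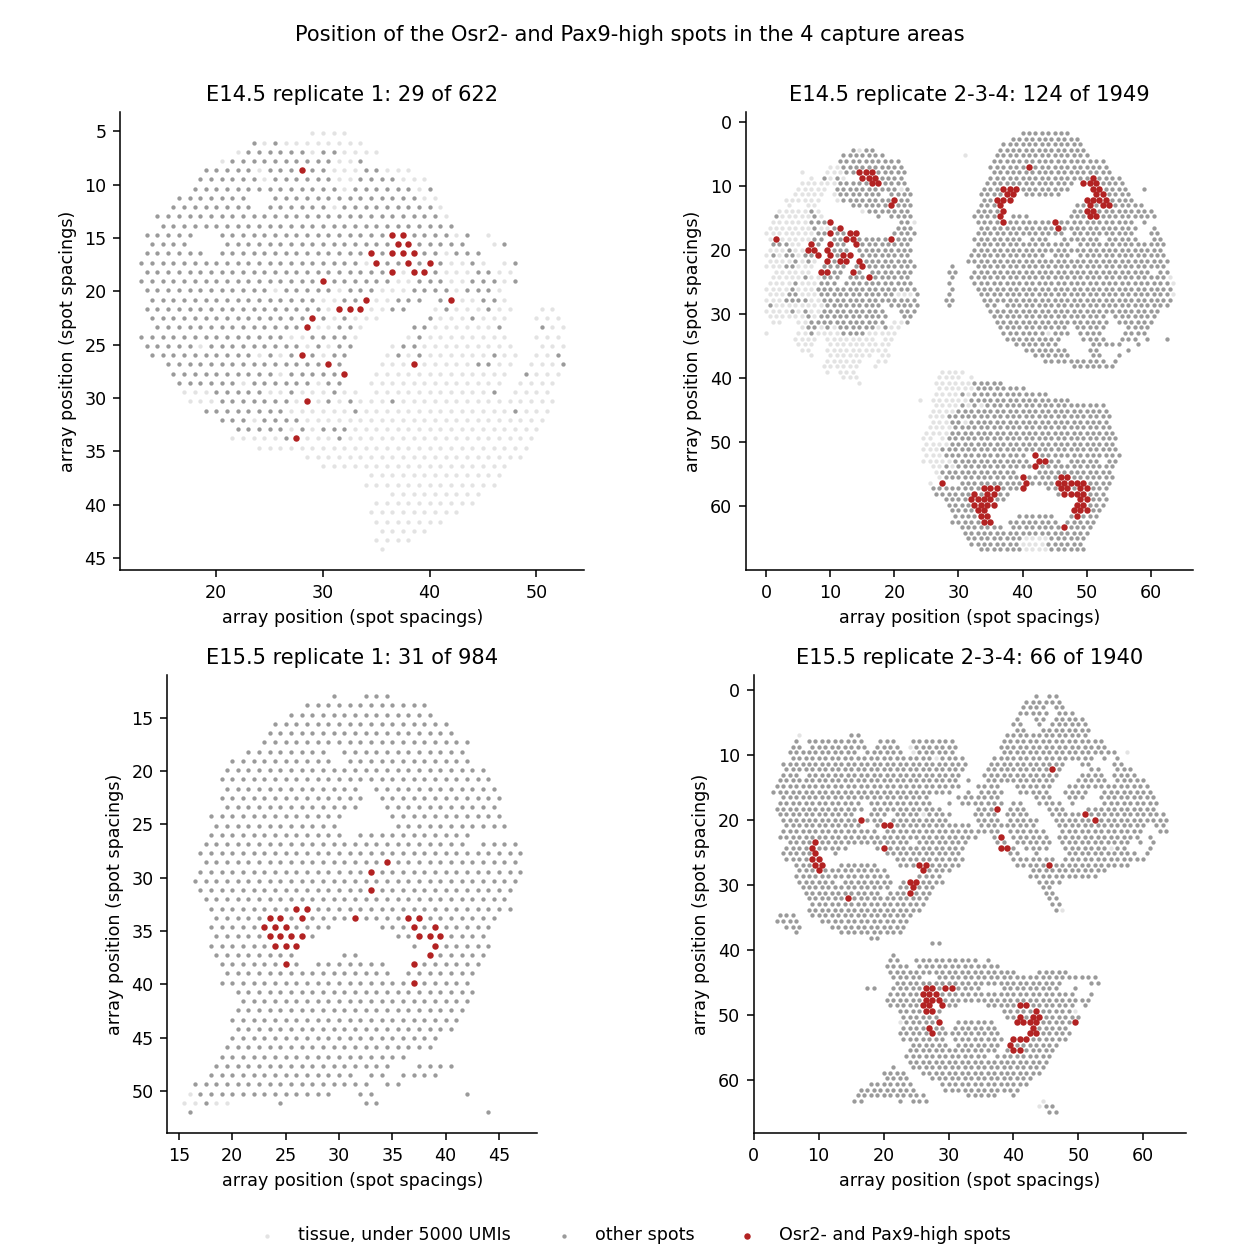
Position of the high spots (red) among the other spots (dark grey) and tissue spots under 5000 UMIs (light grey) in the 4 capture areas, with both axes in spot spacings of the array. The high spots form 10 to 25 patches per area, counting 7 to 11 single spots, and in several sections some patches lie in pairs on either side of a gap. Edge spots made up 40.4% of the high spots, but 1 of 29 in E14.5 replicate 1.

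The high spots were not scattered. Of the spots with at least 5000 UMIs that touched a high spot in E14.5 replicate 1, 31.8% were high spots themselves, where high spots made up 4.66% of the spots of that area. The same share was 54.1% against 6.36% in E14.5 replicate 2-3-4, 42.8% against 3.15% in E15.5 replicate 1 and 39.9% against 3.40% in E15.5 replicate 2-3-4. The largest connected patches held 11, 23, 12 and 17 high spots, and 10, 10, 7 and 11 high spots stood alone. As each of the 6 touching positions should hold tissue inside a section, spots with fewer than 6 were counted as lying at an edge. Edge spots were 101 of the 250 high spots (40.4%) and 28.8% of the other spots, although in E14.5 replicate 1 only 1 of 29 high spots lay at an edge against 15.9% of the other spots.

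The name mesenchyme described the high spots only in part. In 246 of 250 high spots (98.4%) the summed CPM of 10 surface epithelium markers was above the median of the other spots of the same area, and in 216 (86.4%) it was in their upper quartile. The same count for general mesenchyme markers (Prrx1, Twist1, Pdgfra, Col3a1 and others) was 178 (71.2%), and 81 (32.4%) were in the upper quartile. Both lists were above the median in 176 high spots, the epithelial list alone in 70, the mesenchymal list alone in 2 and neither in 2. The high spots are therefore described as regions rich in Osr2 and Pax9, with epithelial markers above that median in nearly all spots and mesenchymal markers in most. This cut is relative and does not measure presence. Over all areas the median of the other spots was 641 CPM for the epithelial list and 7722 CPM for the mesenchymal list. Each high spot held at least 379 CPM of the epithelial list and at least 2714 CPM of the mesenchymal list.

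The share with high mesenchyme differed between areas. It was 93.1% in E14.5 replicate 1, 81.5% in E14.5 replicate 2-3-4, 38.7% in E15.5 replicate 1 and 57.6% in E15.5 replicate 2-3-4, while the epithelial share was at least 96.8% in every area. The summed mesenchyme level of the high spots was 9733, 8961, 6750 and 10018 CPM in that order, and that of the other spots was 4800, 5960, 6685 and 9584 CPM, so the 2 sets were nearly level at E15.5. The epithelial sum was 3401, 5098, 4389 and 4583 CPM in the high spots against 459, 992, 1243 and 1308 CPM elsewhere.

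**Figure D2:**
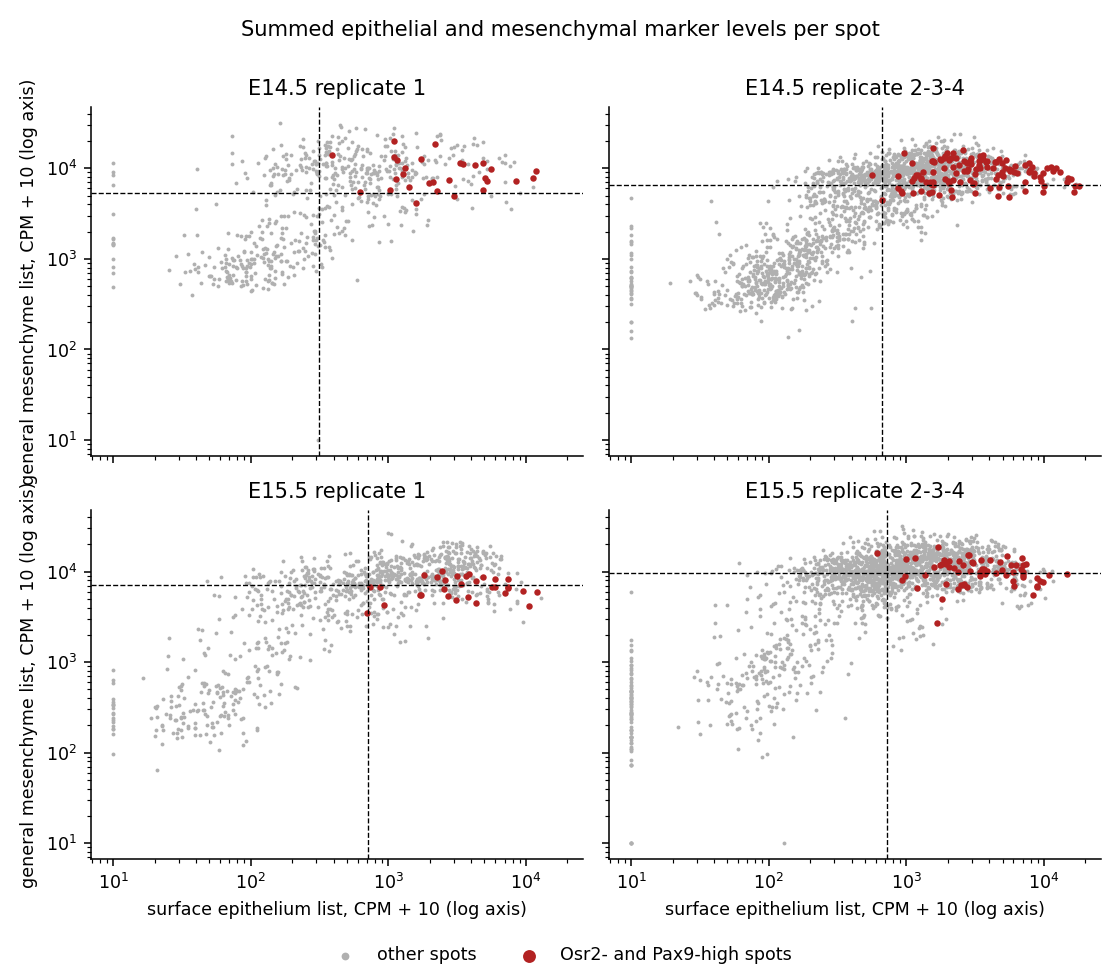
Each point is a spot, placed by the summed CPM of the surface epithelium list (horizontal, log axis) and the general mesenchyme list (vertical, log axis), each with 10 added, and dashed lines mark the medians of the other spots of the area. The high spots (red) lie right of the vertical line in 246 of 250 cases and above the horizontal line in 178.

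Markers of the other cell and tissue types the sections could hold were summed in the same way. Neuronal genes were low, with 8.0% of high spots above the other spots' median and sums of 489, 425, 809 and 391 CPM against 4880, 3280, 2985 and 1618 CPM. Cartilage sums were lower in the high spots in 4 of 4 areas, at 0.658-fold, 0.631-fold, 0.650-fold and 0.299-fold. By single spot, 37.9%, 35.5%, 93.5% and 36.4% of high spots were above the other spots' cartilage median in the same order. In E15.5 replicate 1 the median high spot held 1677 CPM and the median other spot 1107 CPM, the opposite direction to the sum. Skeletal muscle genes went from 1.73-fold in E14.5 replicate 1 to 0.802-fold, 0.224-fold and 0.490-fold in the other areas. Endothelial (0.909-fold to 1.02-fold) and macrophage sums (0.900-fold to 1.21-fold) were near 1. Of the 10 genes of multiciliated nasal epithelium none had 10 UMIs in the high spots of each area, and their sums were 0.941-fold, 1.13-fold, 1.46-fold and 0.634-fold. The palatal transcription factor gene Tbx22, the oral keratin Krt76 and the stem cell receptor Lgr5 had 0 of 12688170 UMIs in the high spots, which allows a level of up to 0.236 CPM. They had only 4, 6 and 10 UMIs in all other spots together, so these 3 genes could not mark any region here.

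Levels were next compared gene by gene. With the requirement of 10 UMIs in the high spots of each area, 7801 genes entered, and 90 (1.15%) were at least 2-fold higher in high spots in 4 of 4 areas, including Osr2 and Pax9. In the opposite direction 60 genes (0.769%) were at least 2-fold lower. A fold above 1 in 4 of 4 areas was found for 33.4% of genes and one under 1 for 13.5%. The median gene stood at 1.05-fold. The shallow area decided how many genes entered: without E14.5 replicate 1, 11533 genes entered, 175 were higher and 306 lower, and without E15.5 replicate 2-3-4 the counts were 139 and 98.

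**Figure D3:**
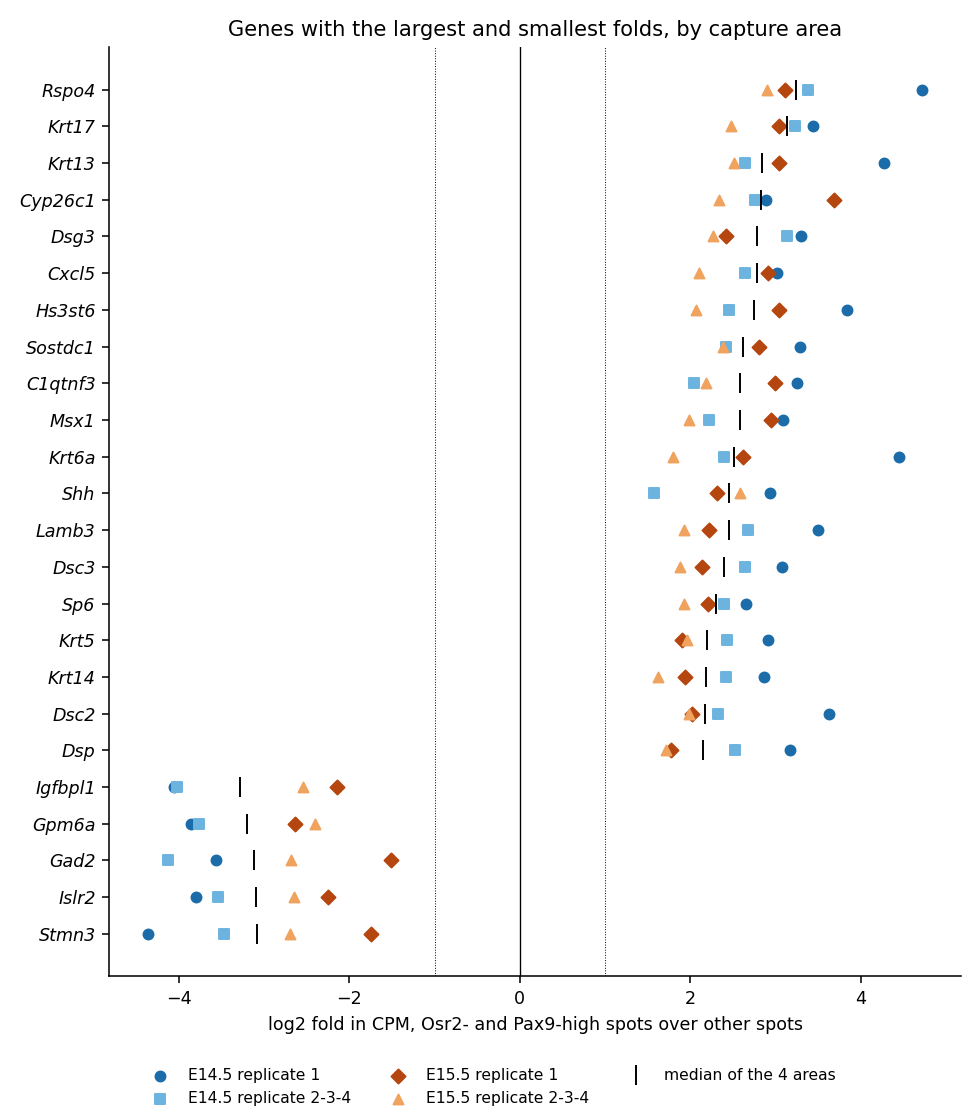
Log2 fold in CPM of high over other spots for named genes among the 20 with the largest and the 5 with the smallest median fold of those past 2-fold in every area. Each coloured symbol is a capture area, the bar is the median of the 4 areas, and dotted lines mark 2-fold; the E14.5 replicate 1 area holds the largest fold for most of the genes higher in the high spots.

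The 20 genes with the largest folds held keratins and adhesion genes of stratified epithelium, grouped here by their known roles and not by a test. Krt17, a keratin of embryonic and basal epithelium, had 402, 403, 601 and 390 CPM in the high spots of E14.5 replicate 1, E14.5 replicate 2-3-4, E15.5 replicate 1 and E15.5 replicate 2-3-4, against 37.0, 43.1, 73.0 and 69.9 CPM in the other spots. Its folds were 10.9, 9.36, 8.23 and 5.57, and no value of the high spots came near those of the other spots. Krt13, a keratin of oral and oesophageal lining, had 63.1, 204, 98.5 and 237 CPM against 3.28 to 41.7 CPM, folds of 19.2, 6.24, 8.22 and 5.69. The basal keratins Krt5 and Krt14 had median folds of 4.58 and 4.53, and Krt6a, which has a close paralog that could share reads with it, 5.68. The desmosome genes Dsg3 (6.85), Dsc3 (5.24), Dsc2 (4.51) and Dsp (4.44) and the laminin chain Lamb3 (5.45), which helps anchor basal cells to the basement membrane, were also among the 20.

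Genes of secreted signals were also among the 20. Rspo4, a secreted enhancer of Wnt signalling, had the largest median fold, 9.45, with 39.5, 18.4, 26.5 and 22.8 CPM in the high spots against 3.09 CPM or less. These levels rest on 15, 112, 59 and 91 UMIs. Sostdc1, a secreted BMP and Wnt antagonist of tooth and hair germs, had 555, 480, 597 and 514 CPM against 57.2, 89.8, 85.5 and 98.5 CPM, a range of 5.22-fold to 9.71-fold. Shh, the Hedgehog ligand made by oral epithelium, had 76.3, 42.2, 116 and 55.4 CPM against 9.99, 14.2, 23.3 and 9.22 CPM. Cyp26c1, an enzyme that degrades retinoic acid, had 39.5, 25.8, 99.8 and 35.6 CPM, with its highest level and its largest fold (12.8) in E15.5 replicate 1. Others of the 20 were the epithelial transcription factor gene Sp6 (4.91), the chemokine Cxcl5 (6.84), the heparan sulfate enzyme Hs3st6 (6.70), the secreted protein C1qtnf3 (5.98) and Msx1.

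Msx1, a homeobox gene of tooth and palate mesenchyme, was the only one of the 20 that belonged to the palatal mesenchyme list. It had 316, 283, 353 and 251 CPM in the high spots and 37.1, 60.8, 45.9 and 63.4 CPM in the other spots, a range of 3.96-fold to 8.51-fold. Among genes with 10 UMIs in the high spots of each area, a requirement that leaves out the lowest genes, the 5 with the smallest median folds were Igfbpl1 (0.103), Gpm6a (0.109), the GABA-producing enzyme gene Gad2 (0.115), Islr2 (0.117) and Stmn3 (0.118), genes known from neural tissue. Gad2 ranged from 0.0573-fold to 0.350-fold.

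The transcription factors of palatal mesenchyme were divided. Of the 22 listed, 17 had enough UMIs, and 5 of them were at least 2-fold higher in every area, beside 1.15% of all genes: Msx1, Barx1 (3.95), Tbx2 (2.72), Tbx3 (2.68) and Pitx1 (3.17). Barx1, a homeobox gene of the molar-forming and posterior palatal mesenchyme, had 92.1, 76.1, 172 and 97.3 CPM. Several others were higher by the median without passing in all areas. Lhx8 and Lhx6, LIM homeobox genes of the oral side of the jaw, had median folds of 3.07 and 2.58, and the forkhead genes Foxf1 and Foxf2, Hedgehog targets in palatal mesenchyme, 3.36 and 2.19. Osr1, the closest relative of Osr2, stood at 1.70 with 68.4, 34.5, 52.6 and 57.9 CPM. Mn1 (0.788), Meis2 (0.746) and Zfhx3 (0.765) stood below 1 by the median. Meox2, a gene of the posterior palatal shelf, was 3.14-fold and 1.27-fold in the E14.5 areas and 0.614-fold and 0.700-fold in the E15.5 areas.

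None of the 10 general mesenchyme genes with enough UMIs was 2-fold higher in every area, although 6 of them were above 1 in each, beside 33.4% of all genes. Prrx2 had the largest median fold (3.15), followed by Prrx1 (2.07) and Twist1 (1.65), all transcription factors of cranial mesenchyme. Prrx1 itself had 371, 495, 518 and 486 CPM, folds of 2.55, 2.08, 2.05 and 1.26. The collagen Col5a2 had the smallest (0.868). In contrast, 7 of the 8 surface epithelium genes with enough UMIs passed, and the eighth, Cdh1, missed only in E15.5 replicate 1 at 1.99-fold. Trp63, the transcription factor of basal epithelium, had 134, 117, 147 and 133 CPM and a median fold of 3.48. In the oral and tongue epithelium list 4 of 6 passed, among them Krt13 and Krt6a, beside 1.15% of all genes for both lists.

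**Figure D4:**
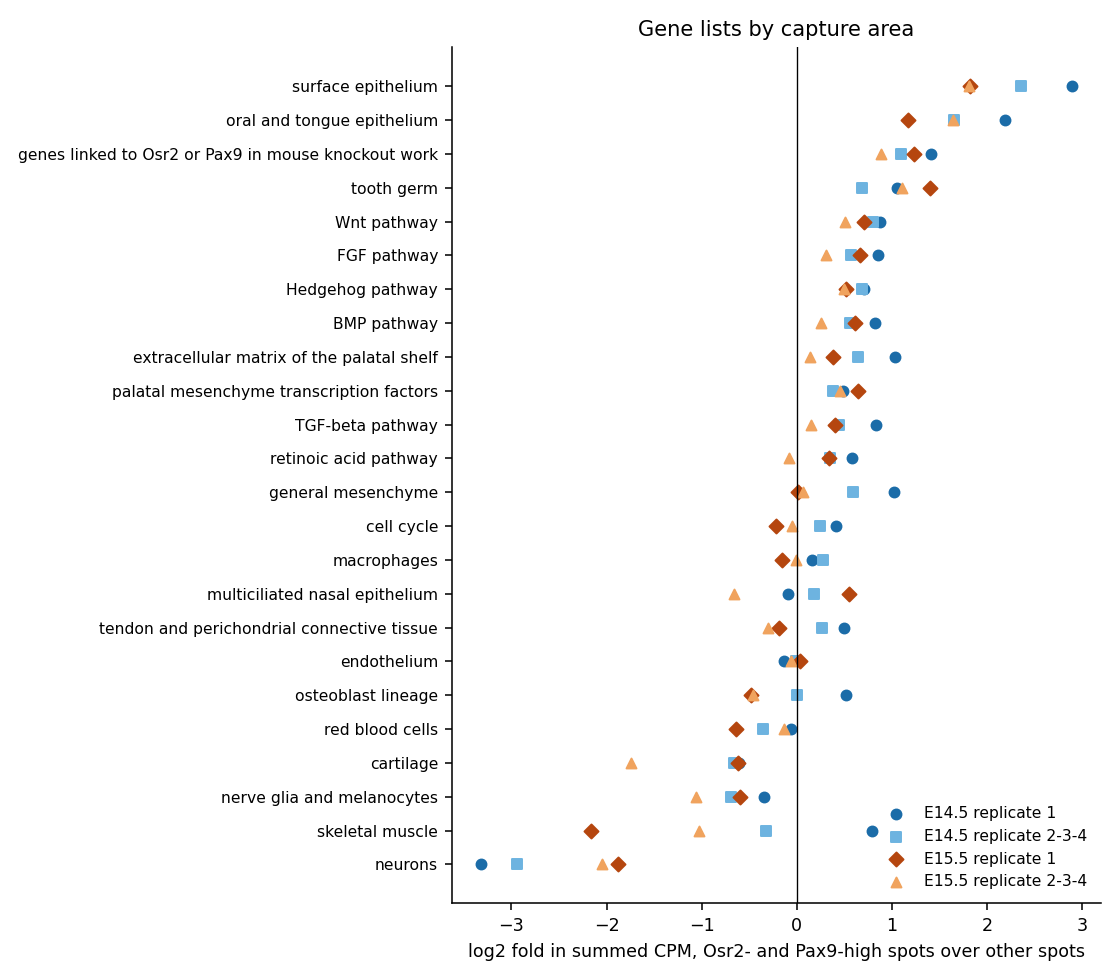
Log2 fold in summed CPM of high over other spots for each gene list, by capture area. Surface epithelium lies farthest right, between 3.50-fold and 7.41-fold, and neurons farthest left by the median, at 0.271-fold or less; the skeletal muscle, osteoblast and cell cycle sums lie on both sides of 0.

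The pathway lists follow in the order ligands, receptors and targets, and genes beyond the fixed examples of each list were named for their roles after their values were seen. Each count of genes past 2-fold stands beside 1.15% of all genes. Of 11 Hedgehog genes with enough UMIs, 2 were past 2-fold in every area: the ligand Shh and the receptor and target Ptch1, with 266, 189, 316 and 248 CPM and a median fold of 2.36. Gli1, a direct Hedgehog target, had 203, 231, 308 and 178 CPM and missed the rule only in E15.5 replicate 2-3-4 (1.83-fold). The transducers Smo (1.48), Gli2 (1.11) and Gli3 (1.32) were closer to 1. In the BMP list, Bmp4 had 116, 119, 112 and 121 CPM and a median fold of 3.41. The other ligands Bmp2 (1.46), Bmp3 (1.37), Bmp6 (2.25) and Bmp7 (1.29) and the responsive genes Id1 (1.51) and Id3 (1.49) did not pass.

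In the Wnt list 4 of 17 genes passed, beside 1.15% of all genes: Rspo4, Wnt4 (2.60), Wnt16 (3.49) and the nuclear effector Lef1 (2.79). Wnt5a, a non-canonical ligand of oral mesenchyme, had 339, 403, 322 and 355 CPM and just missed in E15.5 replicate 2-3-4 (1.98-fold). Axin2, a canonical Wnt target, had folds of 1.91, 1.77, 1.79 and 1.78. For FGF, 1 of 10 passed, beside the same 1.15%, the target Etv4 (3.13), and Dusp6, another target, had a median fold of 2.40. In the retinoic acid list the degrading enzymes Cyp26c1 (7.07) and Cyp26b1 (2.71) were above the producing enzymes Aldh1a2 (1.40) and Aldh1a3 (0.847), and only Cyp26c1 passed in every area. No TGF-beta gene of 13 passed, with Tgfb3, the ligand of palatal fusion, at 1.92-fold, 1.41-fold, 1.23-fold and 0.970-fold.

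Of the genes linked to Osr2 or Pax9 by knockout work, 12 of 16 had enough UMIs and 4 passed, the same Bmp4, Msx1, Shh and Sostdc1, beside 1.15% of all genes. Inhba, a TGF-beta family ligand of tooth mesenchyme, had a median fold of 7.58 but only 10.5, 13.0, 15.7 and 5.51 CPM, and with 4 UMIs in E14.5 replicate 1 it did not enter the count. Among tooth germ genes 3 of 7 passed (Sostdc1, Lef1 and Tfap2b), beside the same 1.15%. Dlx5, a homeobox gene of the jaw, stood at 0.806. Of 14 matrix genes, the hyaluronan synthase gene Has2 passed (2.66), and elastin, Eln, had 1352, 1694, 1294 and 1662 CPM with folds of 3.39, 2.55, 2.14 and 1.94. No cell cycle gene of 15 passed in either direction, and Mki67 had folds of 1.06, 1.15, 1.19 and 1.20. Of 9 osteoblast genes none passed. Their master regulator Runx2 had a median fold of 1.84, whereas the later genes Ibsp (0.575) and Spp1 (0.432) were below 1.

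The high spots were then set against nearer neighbours. Against other spots at least as rich in mesenchyme markers as the median high spot of the area, 57 genes were 2-fold higher in every area, of which 47 were among the 90. Krt17 (7.18), Cyp26c1 (8.50), Rspo4 (7.62), Shh (6.13) and Msx1 (3.54) remained high by the median. Against the spots that touched a high spot, 6 genes passed, of which 5 were among the 90: Pax9, Krt13, Krt15, Wnt16 and Tmem132c. The sixth was C1ql1. Osr2 missed narrowly, at 1.98-fold in its lowest area. The rest of the 90 genes were less than 2-fold above the touching spots in at least 1 area.

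**Figure D5:**
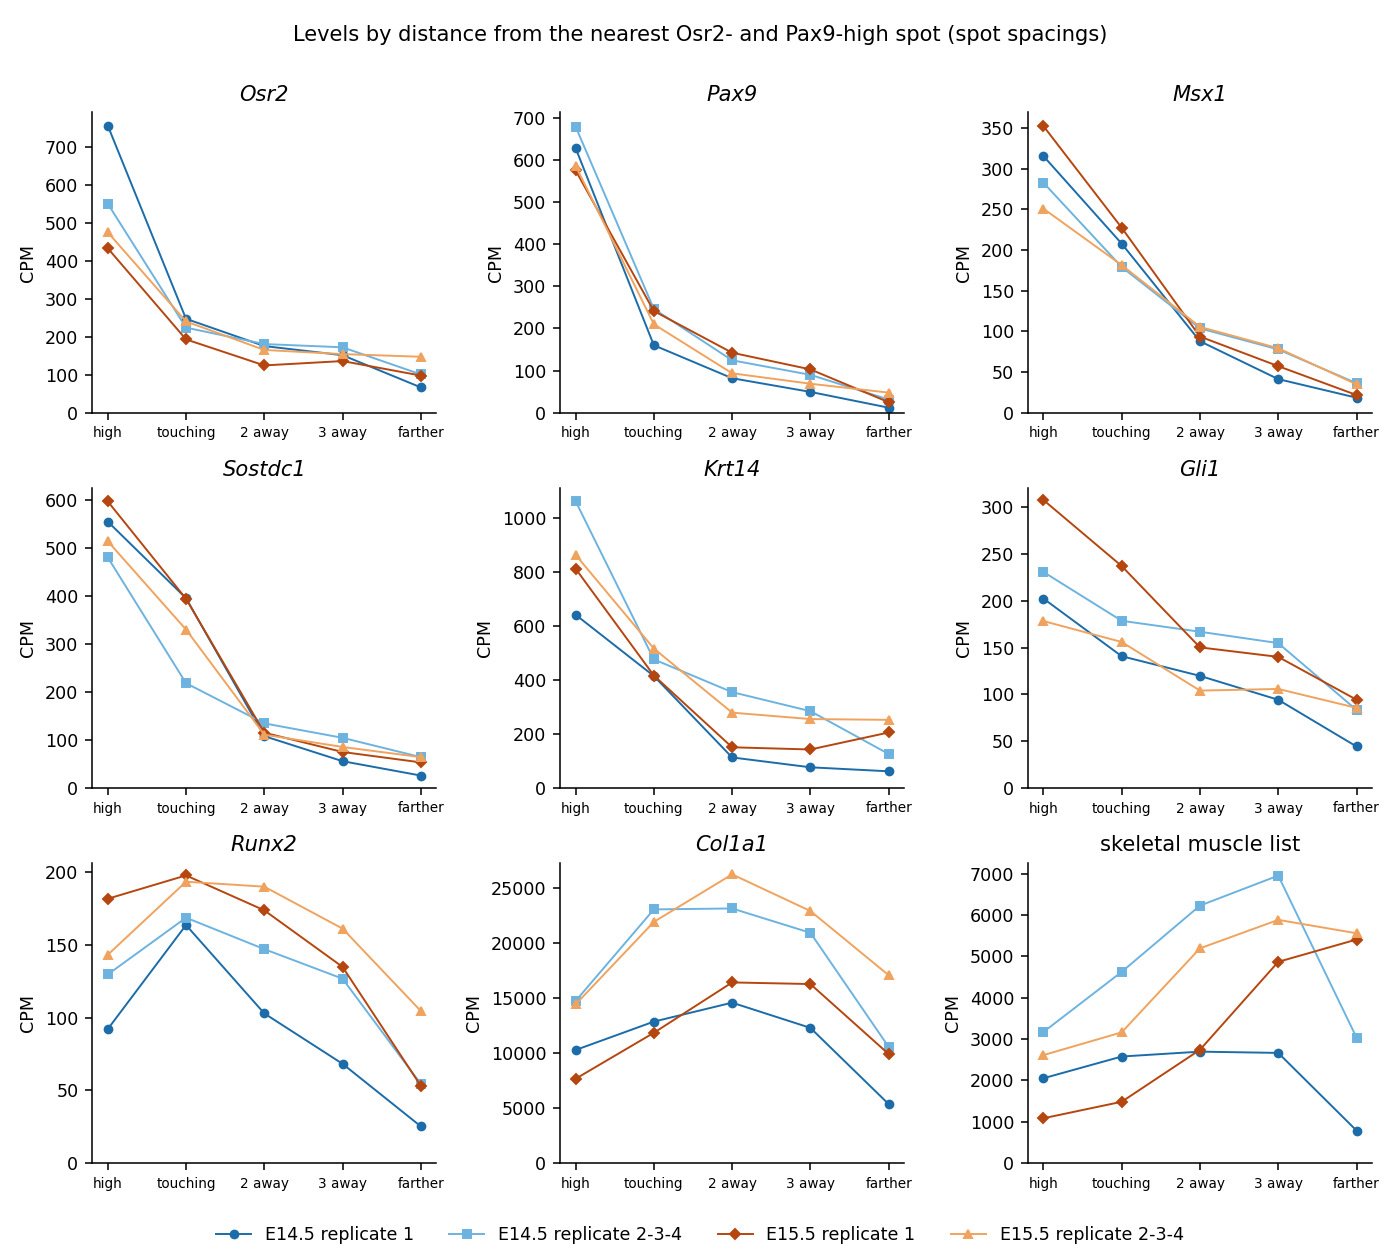
CPM (linear axes from 0) of 8 genes and the skeletal muscle list in the high spots (labelled high), the spots that touch them, spots 2 and 3 spacings away and all farther spots, 1 line per capture area. Osr2, Pax9, Msx1, Sostdc1, Krt14 and Gli1 are highest in the high spots, whereas Runx2 and Col1a1 peak 1 or 2 spacings away.

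Levels by distance separated 2 kinds of gene. Msx1, which was not used in the choice, had 283 CPM in the high spots of E14.5 replicate 2-3-4, 179 in the touching spots, 104 at 2 spacings, 77.8 at 3 and 36.3 farther away. In E15.5 replicate 2-3-4 it had 251, 182, 106, 79.2 and 34.9 CPM. Krt14 went from 1063 to 476, 355, 284 and 126 CPM in E14.5 replicate 2-3-4, and Gli1 from 308 to 237, 150, 140 and 94.3 CPM in E15.5 replicate 1. Shh was as high in the touching spots as in the high spots of both E15.5 areas, at 144 against 116 CPM and 58.2 against 55.4 CPM.

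Bone genes behaved otherwise. Runx2 had 92.1, 130, 182 and 143 CPM in the high spots and 164, 169, 198 and 193 CPM in the touching spots of the same areas, higher in the touching spots in 4 of 4. Col1a1, the main bone and connective tissue collagen, had 10293, 14754, 7673 and 14446 CPM in the high spots and peaked at 14603, 23178, 16445 and 26283 CPM at 2 spacings. The osteoblast list followed, at 12313, 17605, 9905 and 17489 CPM in the high spots and 18435, 28561, 21423 and 32790 CPM at 2 spacings. Meox2 had 63.1, 43.5, 20.2 and 43.4 CPM in the high spots and 57.9, 74.4, 51.8 and 92.6 CPM at 2 spacings, so E14.5 replicate 1 went the other way from the remaining areas.

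The high spots differed among themselves in the balance of the 2 genes. Across all spots of an area, the Spearman correlation of Osr2 with Pax9 (per UMI) was 0.18 over 622 spots, 0.47 over 1949, 0.44 over 984 and 0.31 over 1940, as a description of spots that share libraries and neighbours. Within the high spots it was -0.35, 0.05, -0.0036 and -0.17, values that the choice on the sum of both genes lowers. The high spots of each area were divided at the median ratio of Osr2 to Pax9 into 124 Osr2-leaning and 126 Pax9-leaning spots. Of 5244 genes with 20 UMIs or more in each area, 310 (5.91%) were higher in the Osr2-leaning spots in 4 of 4 areas and 350 (6.67%) lower, with Osr2 and Pax9, which made the split, among them. Unrelated signs in the areas would put 6.25% of genes on each side, so no gene is named from these counts.

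The list sums were read in the same split. Surface epithelium had ratios of Osr2-leaning to Pax9-leaning spots of 1.80, 0.864, 1.01 and 0.728, and general mesenchyme 1.14, 1.18, 0.861 and 0.999. The palatal transcription factor list had 0.838, 0.968, 0.832 and 1.01 and the osteoblast list 1.24, 1.25, 0.872 and 1.15. None of these list sums lay on the same side of 1 in 4 of 4 areas.

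When the score was treated as a continuous value over all 5495 spots, the genes most like it were not the epithelial ones. The highest mean Spearman correlation over the 4 areas belonged to Eln (0.66, between 0.59 and 0.74), followed by Fbn2 (0.64), Mfap2 (0.61), Fstl1 (0.59), Igfbp4 (0.58), Nfatc4 (0.58), Flna (0.58), Gpc3 (0.58) and Itgb5 (0.57). Eln, Fbn2 and Mfap2 encode components of elastic fibres and microfibrils. None of these named genes was past 2-fold in every area. These correlations describe 622 to 1949 spots per area, which share depth and the contrast between brain and facial tissue.

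The share of spots that were high was 4.66% (exact 95% binomial interval 3.14% to 6.63%) and 6.36% (5.32% to 7.54%) in the E14.5 areas and 3.15% (2.15% to 4.44%) and 3.40% (2.64% to 4.31%) in the E15.5 areas. These intervals cover counting error only, and neighbouring spots are not independent. The areas of the stages did not overlap, with means of 5.51% ± 1.20 (SD, n = 2) and 3.28% ± 0.178 (SD, n = 2). The exact permutation test over areas, which counts both directions, gave p = 0.333, the smallest value that 2 areas against 2 allow, so no difference could be shown. Among spots with at least 10000 UMIs the areas of the stages overlapped (exact p = 1.0). Single sections ranged more widely, from 3.74% to 9.41% over 4 sections at E14.5 and from 1.40% to 7.24% over 4 sections at E15.5, with overlap. Over all 5495 spots, which the choice did not affect, Osr2 had 110 and 152 CPM at E14.5 and 121 and 174 CPM at E15.5, and Pax9 45.0 and 101 CPM against 74.1 and 94.8 CPM, overlapping in both cases.

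Expression within the high spots was compared between E14.5 and E15.5, the period in which the palatal shelves fuse, on UMIs summed per capture area. Of 12157 genes tested with edgeR's quasi-likelihood test, 0 passed a Benjamini-Hochberg adjusted p of 0.1 in either direction (0.0%), 184 (1.51%) had an unadjusted p under 0.05, and DESeq2 called 0 genes with 45 at an unadjusted p under 0.05. P-values measure the spread between 2 areas per stage. The share of high spots above the other spots' mesenchyme median was 93.1% and 81.5% at E14.5 against 38.7% and 57.6% at E15.5. That median itself was higher at E15.5, at 7098 and 9584 CPM against 5354 and 6501 CPM. The summed mesenchyme level of the high spots overlapped between stages, at 9733 and 8961 CPM against 6750 and 10018 CPM. The part of mesenchyme content in the stage values was not tested. Levels per 1000000 UMIs did not overlap between stages for 2072 genes (17.0%) that were higher and 1160 (9.54%) that were lower at E15.5. After the TMM scaling of the edgeR fit the counts were 1700 (14.0%) and 1542 (12.7%).

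Since none passed, the 10 genes of smallest p are given as missing the threshold. Arhgef25, a guanine nucleotide exchange factor, had 150 and 229 CPM in the E14.5 areas and 59.4 and 21.3 CPM in the E15.5 areas, a log2 difference of -2.39 (SE 0.41, adjusted p = 0.932, edgeR). It was lower at E15.5 in the other spots as well, at 123 and 153 against 45.6 and 16.7 CPM. Tmem134 had 71.0 and 86.5 against 35.5 and 25.6 CPM, and 61.4 and 63.0 against 34.4 and 21.4 CPM in the other spots. Of the rest, Myh7, Dio2 and the Wnt antagonist gene Sfrp4 (36.8 and 53.2 against 20.7 and 27.1 CPM) had lower levels at E15.5. Amd1, Tomm22, Snhg11, Slc35a3 and the lens gene Crybb1 had higher levels. Crybb1 ran from 1.78 to 1066 CPM in the other spots of the 4 areas.

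No gene of any list passed either. Osr2 and Pax9 chose the spots, so their levels in them are not compared between stages. Msx1 (316 and 283 against 353 and 251 CPM), Bmp4, Sostdc1 and Krt14 overlapped between stages, with log2 differences of -0.04 (SE 0.26), -0.07 (SE 0.24), 0.06 (SE 0.25) and -0.10 (SE 0.29). Runx2, at 92.1 and 130 against 182 and 143 CPM, did not overlap (log2 difference 0.43, SE 0.27, adjusted p = 0.9996 by edgeR). Lhx8 (166 and 181 against 276 and 227 CPM) and Barx1 were also higher in both E15.5 areas, while Tbx3 and Foxf2 were lower in both. Tbx2 (284 and 222 against 237 and 189 CPM) overlapped, but not after TMM scaling. In the palatal transcription factor list 5 of 21 genes tested were higher without overlap and 6 lower, beside 17.0% and 9.54% of all genes, and with TMM scaling 5 and 7, beside 14.0% and 12.7%. In the surface epithelium list none of 9 was higher or lower without overlap, and with TMM scaling 1 was higher.

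Last, the stage difference within the high spots was compared with that in the other spots of the same areas, in an edgeR model with area as a block. Of 14038 genes tested, 171 (1.22%) differed at an adjusted p under 0.1, 104 (0.741%) with a more positive and 67 (0.477%) with a more negative change in the high spots. The call rested on 1 library: without the E14.5 replicate 2-3-4 area, 0 genes passed and 2231 had an unadjusted p under 0.05, while without E15.5 replicate 2-3-4, 307 passed. DESeq2 called 153. The other spots hold all further tissue that each section cut, so values for both sets are given.

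On the positive side, 5 of 8 neuronal genes were called (Tubb3, Stmn2, Mapt, Dcx and Map2), beside 0.741% of all genes. Mapt, a microtubule protein of neurons, had 44.7 and 32.5 CPM in the high spots at E14.5 and 92.2 and 28.3 CPM at E15.5, whereas in the other spots it had 543 and 415 against 353 and 166 CPM. On the negative side, 7 of 10 skeletal muscle genes were called, beside 0.477% of all genes. The embryonic myosin gene Myh3 had 539 and 1152 against 260 and 804 CPM in the high spots, and 327 and 1355 against 1281 and 1598 CPM in the other spots. Summed over the list, the other spots held 4880 and 3280 CPM of neuronal genes at E14.5 and 2985 and 1618 CPM at E15.5, and 1186 and 3954 against 4848 and 5324 CPM of muscle genes. The part of the tissue cut in each section was not tested.

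Among genes of the oral lists, chosen because they were called, Lhx6 (216 and 264 against 249 and 211 CPM) overlapped between stages in the high spots and was lower at E15.5 in the other spots (94.2 and 202 against 65.0 and 72.6 CPM), a difference of 1.05 (SE 0.23, adjusted p = 0.0667, edgeR). Dlx2, a homeobox gene of the jaw and teeth, had 34.2 and 17.2 against 70.1 and 31.3 CPM in the high spots and 39.4 and 22.9 against 26.9 and 18.1 CPM elsewhere, a difference of 1.45 (SE 0.27, adjusted p = 0.0543, edgeR). Its relative Dlx1 was called in the same direction. Krt14 and Dsp differed the other way, by -0.83 (SE 0.18) and -1.03 (SE 0.19), with overlapping levels in the high spots and higher levels at E15.5 in the other spots. Dsp had 310 and 527 against 349 and 503 CPM in the high spots and 34.6 and 91.4 against 102 and 153 CPM elsewhere. Col1a1, Col3a1 and Postn also had more negative changes in the high spots.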

How the data were processed

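Spatial RNA sequencing (Visium for fixed tissue) was analysed for 4 capture areas, 2 per stage. The deposited matrices hold raw UMI counts, not normalized, which the authors generated with Space Ranger 1.3.1 (replicate 1 areas) and 2.0.0 (areas of replicates 2, 3 and 4). The processing notes name mm10; the probe set is not given in the sources used here. Area totals were 15438992 to 109127953 UMIs. From the deposited tissue positions 6357 tissue spots were kept (19 barcodes off tissue and 12 positions without counts left out), and 5495 spots with at least 5000 UMIs entered. No doublet caller was run. Gene positions come from GENCODE M21 (GRCm38), matched by Ensembl identifier.

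The members and the gene lists were chosen with earlier results of these data known. Levels are summed UMIs per 1000000. High and other spots were compared by folds, with 10 UMIs required in the high spots of each area, a fold of 2 in 4 of 4 areas and no test. A group with 0 UMIs was taken at a floor of 3 counts. Stage was tested on summed UMIs with edgeR 4.0.16 (R 4.3.3; TMM, filterByExpr, glmQLFTest, Benjamini-Hochberg, adjusted p under 0.1), with standard errors derived from the F statistic. The interaction fit used 8 sums with area as block. DESeq2 1.42.0 was an alternative. Levels without overlap were counted per 1000000 UMIs and after TMM scaling, the former added after seeing the data. Shares were compared by an exact permutation test over areas. The genes named were Osr2 and Pax9, the 20 largest and 5 smallest median folds past the rule, the 10 smallest p of the stage and of the interaction test, per list the highest gene, the largest and smallest fold and any gene of the background text, and the 10 genes most correlated with the score; further genes were chosen after their values were seen. The tests were checked on simulated data. Sections on 1 area were sequenced as 1 library and were separated as connected groups of at least 100 spots. Some genes that the rule would name are not reported here.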

Additional observations from a re-analysis of the deposited data

Results flagged for a closer look

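The change from E14.5 to E15.5 differed between the Osr2- and Pax9-high spots and the other spots of the same capture areas for 171 genes, by the interaction test of edgeR at an adjusted p under 0.1. The 10 genes of smallest p are given here as log2 differences of the stage change, high minus other spots. Ttr, the thyroid hormone carrier made by the choroid plexus, differed by 4.35. Its level in the other spots was 2080 CPM in the E14.5 replicate 2-3-4 area and 6.35, 8.48 and 204 CPM in the others, and in the high spots 5.26 and 74.7 CPM at E14.5 and 2.70 and 183 CPM at E15.5. Without that area the difference was 0.05, and DESeq2 gave 2.01 with an adjusted p of 0.999. Nkx2-1, a transcription factor gene of the ventral forebrain, differed by 3.95, with 10.4 and 117 CPM in the other spots at E14.5 against 2.78 and 8.24 CPM at E15.5, and 1 to 30 UMIs per area in the high spots.

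Of the others, 7 are genes active in neural tissue: Igfbpl1 (1.70), Scg3 (1.88), Prr36 (1.75), Map2 (1.32), Zic1 (2.23), Mapk10 (1.90) and Nnat (1.21). For each of the 7, the mean level in the other spots was lower at E15.5, for Nnat 4234 CPM at E14.5 and 2169 CPM at E15.5, and the mean in the high spots was higher at E15.5, for Nnat 647 and 802 CPM. In the high spots the E15.5 replicate 1 area held the highest level of each, 1137 CPM for Nnat, and the higher mean rests on it for several: the other E15.5 area was below both E14.5 areas for Nnat (468 against 747 and 547 CPM), Igfbpl1 (19.3 against 44.7 and 25.3 CPM) and Prr36 (13.0 against 13.2 and 15.1 CPM), between them for Map2, and above both for Scg3, Zic1 and Mapk10. Krtdap, a gene of differentiating keratinocytes, differed by -1.69, with 31.9 and 79.6 against 207 and 231 CPM in the other spots and 52.6 and 129 against 80.0 and 148 CPM in the high spots. The part of section position in these differences was not tested.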

How the results depend on the processing

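For genes that differ between stages (0 called), the count was 10 without a filter on low counts, 1 with the replicate block, 2 with sections as samples, 2 with high spots chosen after thinning to 5000 UMIs, 1 with fewer high spots and 0 to 16 when 1 area was left out, the most without E15.5 replicate 2-3-4; Arhgef25 passed in 7 of these settings. Same-numbered areas share the Space Ranger version and the number of sections beside the replicate number. The correlation of their deviations was 0.0359. With 2 areas per stage this is a single value, which cannot decide whether they share a batch. For the interaction (171 called) it was 786 without a filter, 284 with the same share of spots from each area, and 0 to 307 when 1 area was left out. The genes higher in high spots (90) numbered 56 on unused UMIs, 57 against mesenchyme-rich spots, 6 against touching spots, 38 with 30 UMIs per area and 95 to 175 when 1 area was left out. Those lower (60) numbered 27 with fewer high spots, 127 with 500, 17 on unused UMIs, 14 against mesenchyme-rich spots, 3 against touching spots, 11 with 30 UMIs and 60 to 306 when 1 area was left out. The difference in share (-2.24 points) was negative in every setting tried, from -1.23 after thinning to -3.09 without E14.5 replicate 1. No value changed sign, but the calls of the named interaction genes were lost in 13 of 90 cases, 10 of them without E14.5 replicate 2-3-4. Thinning kept 161 of the 250 spots. Keeping only high spots at or below the epithelial median of their area left 5, with 0 in E14.5 replicate 1, so no stage value was computed. That cut is not the same as the median of the other spots, which 246 of the 250 high spots exceeded. Where a cause is not given it was not tested. Depth limits the E14.5 replicate 1 area most.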
